A study of Homo sapiens with 8 samples.

Results

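The genes described are 48 genes of mitosis and of the G2/M transition, out of 19775 genes measured in glucocorticoid-treated leukaemia cells. The list was fixed by name (cyclins, mitotic kinases, spindle checkpoint, kinetochore, kinesin, spindle, cytokinesis and condensation genes), and each gene was read from its brightest probe set that carries a single gene symbol. All 48 listed genes were measured. The cells were CCRF-CEM-C7-14, a glucocorticoid-sensitive clone of the CCRF-CEM line of T-lineage acute lymphoblastic leukaemia, so all values describe 1 clone. Expression was measured on 8 one-colour arrays, with 3 arrays of cells before treatment (0 h), 3 arrays after 2 h and 2 arrays after 10 h in 1 µM dexamethasone, a synthetic glucocorticoid. Cells at every time, untreated ones included, had been given medium whose serum was stripped of steroids with charcoal. No array of untreated or vehicle-treated cells at 2 h or 10 h was used here, so hormone and time in that medium cannot be told apart.

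As background, cells enter mitosis when cyclin A and cyclin B activate CDK1, and they leave it when the anaphase-promoting complex (APC/C) marks cyclin B and securin for destruction. Most genes of this programme are transcribed together late in the cell cycle: MuvB complexes repress them as part of DREAM in resting and G1 cells, and activate them with B-MYB and FOXM1 in S and G2 phase. Glucocorticoids are known to hold sensitive lymphoid leukaemia cells in G1 before the cells die, so the question put to these genes was whether their RNA moved within the first 10 h.

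The promoters of these genes are shown because a shared element, the cell cycle genes homology region (CHR), is the site through which MuvB is known to bind them. Promoters were those of RefSeq on GRCh38.p14, from 250 bases before to 50 bases after the gene start, and 41 of the 48 genes had one. TTTGAA or TTCGAA, on either strand (TTTGAA reads TTCAAA on the other), occurred in 29 of 41 promoters (70.7%). The share among all 15384 promoters of measured genes was 13.3%, and it was 62.7% in other mitotic genes (47 of 75) and 4.55% in genes of G1/S and replication (2 of 44). CCAAT, or ATTGG on the other strand, occurred in 73.2% of the members' promoters and in 36.1% of all promoters. The CHR letters and CCAAT stood together in 56.1% and 5.43%, and ATTGG can share its first letter with TTTGAA. Such a match is a description of the letters and not evidence of binding in these cells. Below are 60 bases upstream of the start of 8 members, placed around a CHR match and not at a fixed distance, 5′ to 3′ on the gene's strand, with matches to both motifs in capitals. The CHR match nearest the 3′ end of each window starts between 23 (BUB1B) and 109 bases (DLGAP5) before the gene start. They are 5 genes with central roles and 3 (KIF11, DLGAP5, SMC4) whose values stood apart in the results.
CCNB2: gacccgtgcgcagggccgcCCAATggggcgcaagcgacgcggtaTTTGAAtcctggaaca
PLK1: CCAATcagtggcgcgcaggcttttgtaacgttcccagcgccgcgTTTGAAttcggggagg
CDC20: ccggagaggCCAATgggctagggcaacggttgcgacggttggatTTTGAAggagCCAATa
BUB1B: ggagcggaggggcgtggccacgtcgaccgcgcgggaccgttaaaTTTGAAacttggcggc
MKI67: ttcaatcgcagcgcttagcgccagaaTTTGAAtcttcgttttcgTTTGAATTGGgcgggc
KIF11: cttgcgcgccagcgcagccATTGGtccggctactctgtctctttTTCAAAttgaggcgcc
DLGAP5: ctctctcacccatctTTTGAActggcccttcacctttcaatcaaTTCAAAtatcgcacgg
SMC4: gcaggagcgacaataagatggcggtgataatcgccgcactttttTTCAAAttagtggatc
On GRCh38.p14 these windows lie at chr15:59105073-59105132 (CCNB2, plus strand), chr16:23678816-23678875 (PLK1, plus), chr1:43358872-43358931 (CDC20, plus) and chr15:40161002-40161061 (BUB1B, plus). The other windows lie at chr10:128126437-128126496 (MKI67, minus), chr10:92593058-92593117 (KIF11, plus), chr14:55191679-55191738 (DLGAP5, minus) and chr3:160399531-160399590 (SMC4, plus).

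The deposited values are log2 expression values per probe set, and every difference below is a difference of such values (a log2 fold change). The number of arrays limits the precision. The arrays are labelled biological replicates, but no label tells whether they were separate cultures, and the p-values then measure only the spread between these samples, which may be technical. Array medians ranged from 4.68 to 5.01, and 3 arrays had the lowest medians (0 h replicate 2, 2 h replicate 3 and 10 h replicate 1), 1 at each time. All 16 measured T-lineage markers had a 0 h mean above 4.73, the highest value of 27 bacterial control probe sets, with LCK at 12.3 and CD7 at 8.35. The lowest was CD2 at 4.78, and its 10 h mean of 4.56 lay below the highest control. Of the B-cell markers 4 of 7 lay above the controls, as did 2 of 9 myeloid and 5 of 10 stromal and epithelial markers. Among these, CD79A at 8.50 and EPCAM at 8.23 were about as bright as CD7. Genes known to respond to glucocorticoids changed: at 10 h against 0 h TSC22D3, a classical glucocorticoid target, rose by 4.30 ± 0.22 (SE), FKBP5 by 2.16 ± 0.22 and the receptor gene NR3C1 by 1.49 ± 0.23, and MYC changed by -1.01 ± 0.20 (limma adjusted p = 0.03). The NR3C1 call was lost in 3 of 20 alternative fits, those without either 10 h array or without the 3 arrays with the lowest medians. The MYC call was lost in 6 of 20 alternative fits, among them each that left out 0 h replicate 1, 0 h replicate 2, 2 h replicate 2 or either 10 h array. TSC22D3 had a log2 fold change of -0.16 when probe sets with no cross-hybridisation suffix were preferred.

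None of the mitosis and G2/M genes passed the test at either time. By limma with Benjamini-Hochberg adjustment over all genes at 0.05, 0 of 48 passed at 2 h against 0 h, where 0.0202% of all genes passed. At 10 h against 0 h it was 0 of 48, with 0.354% of all genes passing, and at 10 h against 2 h 0 of 48, with 0.167%. At an unadjusted p below 0.05, 0, 1 and 2 of the 48 genes passed in these 3 comparisons, against 0.946%, 3.44% and 3.15% of all genes. The 1 at 10 h against 0 h was DLGAP5, and the 2 at 10 h against 2 h were DLGAP5 and SMC4. In a bulk culture, a change in the share of cells in mitosis and a change in RNA per cell cannot be told apart.

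The intervals show how precisely the change of each gene was measured across these arrays. At 2 h against 0 h, 47 of 48 genes had a 95% confidence interval that lay wholly within a 2-fold change in either direction, against 99.3% of all genes. At 10 h against 0 h it was 46 of 48 (96.9% of all genes) and at 10 h against 2 h 46 of 48 (97.1%). RACGAP1 was outside in all 3 comparisons and DLGAP5 in both at 10 h. The 2-fold count was chosen after seeing the data. As shares of the members these counts were close to those of all genes, so they describe precision and nothing particular to these genes. The median distance from the estimate to the end of its interval was 0.40 at 2 h and 0.45 at 10 h, a fold of 1.32 and 1.36. These intervals are not adjusted for the number of genes. A smaller shift in single genes was therefore not detectable here, and a larger one could also fail the adjusted test.

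The median log2 fold change of the 48 genes was 0.04 at 2 h against 0 h (all genes 0.02), 0.08 at 10 h against 0 h (all genes -0.02) and 0.02 at 10 h against 2 h (all genes -0.03). Log2 fold changes ranged from -0.24 to 0.25 at 2 h, from -0.32 to 0.60 at 10 h against 0 h, and from -0.32 to 0.62 at 10 h against 2 h. Positive values were found in 33 of 48 genes at 2 h (55.7% of all genes), 33 of 48 at 10 h against 0 h (44.6%) and 25 of 48 at 10 h against 2 h (42.5%). Leaving out 1 array turned the sign of the medians: at 2 h against 0 h it was -0.01 without 0 h replicate 2, and at 10 h against 0 h it was -0.01 without 0 h replicate 2, -0.03 without 10 h replicate 2 and 0.20 without 10 h replicate 1. The median at 10 h against 2 h was 0.11 without 10 h replicate 1, -0.10 without 10 h replicate 2 and -0.01 without 2 h replicate 3. Of the counts of positive genes, the first was 18 without the 3 arrays with the lowest medians and 21 with array weights, and the second was 21 without 10 h replicate 2 and 19 with array weights.

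**Figure D1:**
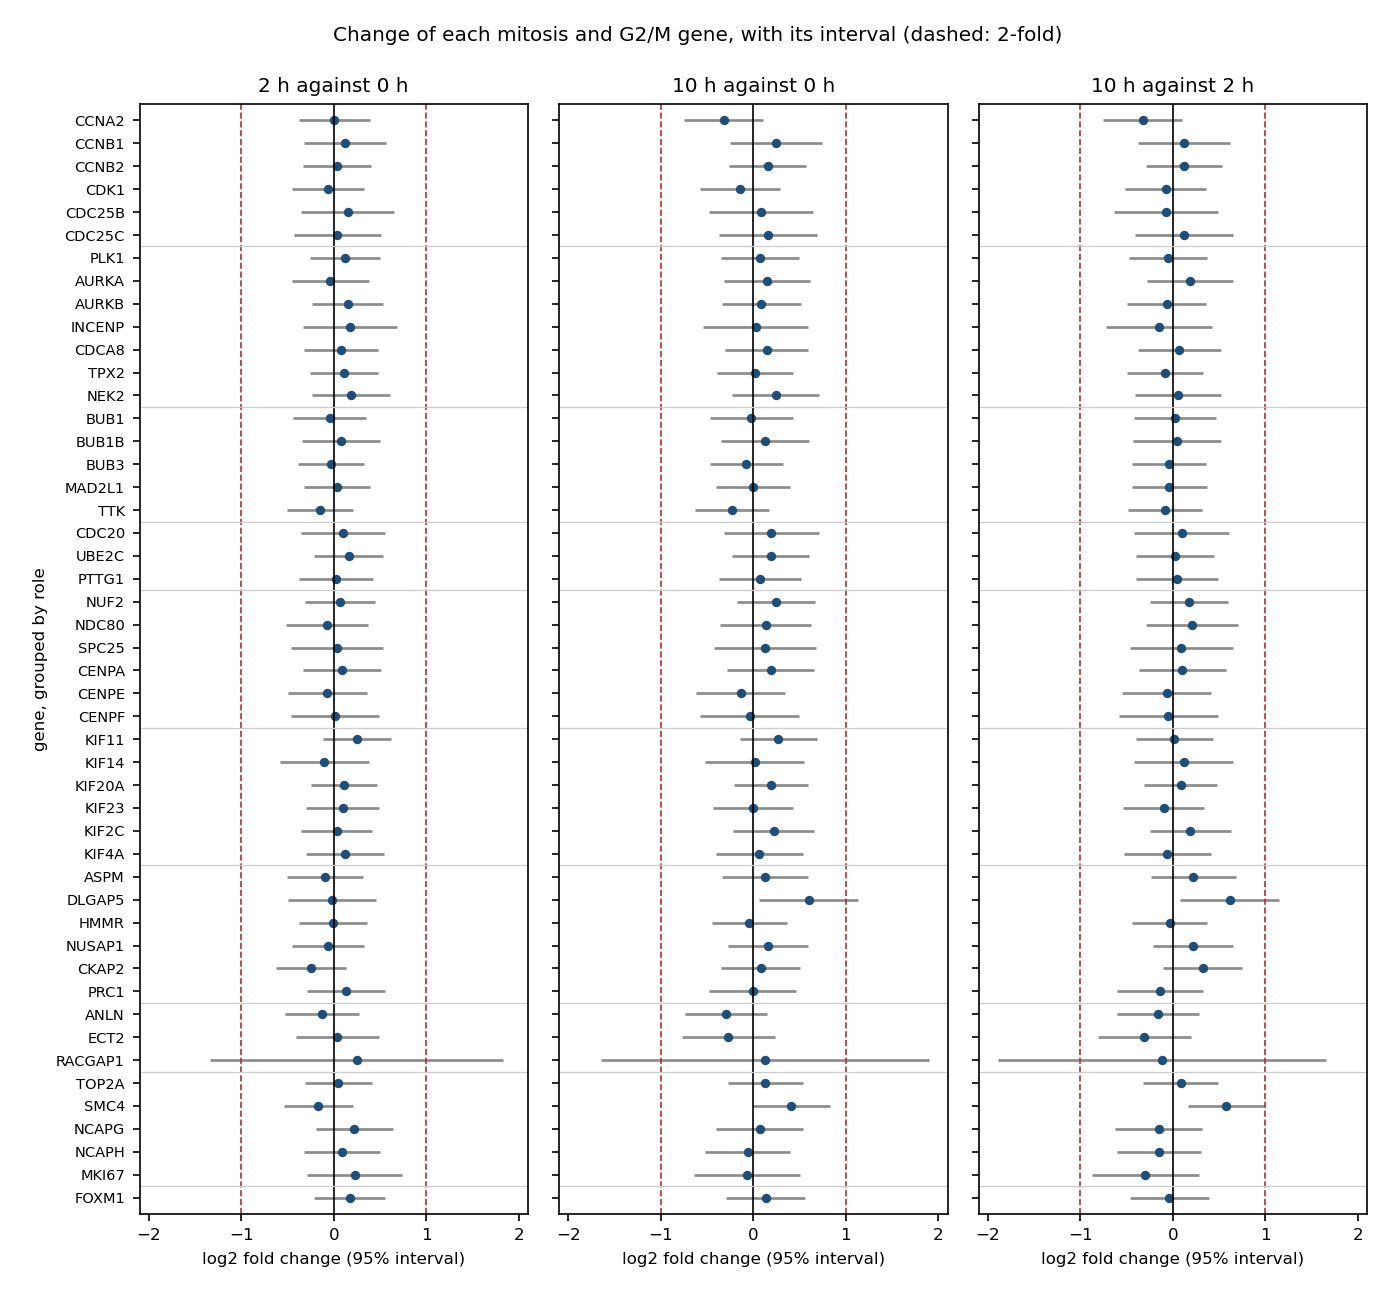
Log2 fold change (x axis) of each of the 48 genes (y axis, grouped by role) with its 95% confidence interval, in a panel for each of the 3 comparisons; dashed lines mark a 2-fold change. Nearly all intervals lie between the dashed lines and cross 0, those of RACGAP1 are the widest, and DLGAP5 lies furthest to the right at 10 h, at 0.60 and 0.62.

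The cyclins that drive entry into mitosis came first among the roles. CCNA2 encodes cyclin A2, which acts with CDK2 in S phase and with CDK1 at mitotic entry. CCNA2 read 9.72, 9.23 and 9.70 in the 0 h arrays, 9.63, 9.56 and 9.48 in the 2 h arrays, and 9.27 and 9.19 in the 10 h arrays. The 10 h arrays lay below all 2 h arrays and below all 0 h arrays except 0 h replicate 2, which lay between them. Its log2 fold change was the lowest of the members in both 10 h comparisons, at -0.32 ± 0.20 (SE) against 0 h (95% interval -0.74 to 0.11) and at -0.32 ± 0.20 against 2 h, and neither passed. Its other probe set gave -0.23 at 10 h against 0 h.

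CCNB1 encodes cyclin B1, the main partner of CDK1 in mitosis. CCNB1 read 10.55, 10.48 and 10.02 at 0 h, 10.82, 10.54 and 10.06 at 2 h, and 10.53 and 10.66 at 10 h. The third replicate was the lowest at both 0 h and 2 h, and the 10 h arrays overlapped with both times. The log2 fold change at 10 h against 0 h was 0.25 ± 0.24 (-0.25 to 0.74), and a second, dimmer probe set gave -0.23. CCNB2, the related cyclin B2, read 10.66, 10.46 and 10.43 at 0 h, 10.78, 10.42 and 10.44 at 2 h, and 10.62 and 10.72 at 10 h. Its arrays overlapped at all times, and its interval at 10 h against 0 h ran from -0.26 to 0.57.

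CDK1, the kinase itself, read 11.05, 10.68 and 11.17 at 0 h, 10.94, 10.89 and 10.87 at 2 h, and 10.64 and 11.00 at 10 h. The arrays overlapped, with the lowest value in 10 h replicate 1 and the highest in 0 h replicate 3, and the log2 fold change at 10 h against 0 h was -0.15 ± 0.21. The CDC25 phosphatases remove inhibitory phosphates from CDK1. CDC25B read 10.67, 10.01 and 9.89 at 0 h, 10.50, 10.69 and 9.84 at 2 h, and 10.17 and 10.38 at 10 h. CDC25C read 7.05, 6.56 and 7.35 at 0 h, 7.22, 7.01 and 6.84 at 2 h, and 6.82 and 7.48 at 10 h. In both genes replicates of 1 time differed more than the time means did, and the log2 fold changes at 10 h against 0 h were 0.08 ± 0.27 (CDC25B) and 0.16 ± 0.25 (CDC25C).

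Among the mitotic kinases, PLK1 (polo-like kinase 1, which promotes mitotic entry and spindle assembly) read 7.82, 7.85 and 7.57 at 0 h, 7.89, 8.07 and 7.65 at 2 h, and 7.76 and 7.87 at 10 h. The 10 h arrays overlapped with the untreated ones, and the log2 fold change at 10 h against 0 h was 0.07 ± 0.20 (-0.35 to 0.49). AURKA, the centrosomal and spindle kinase Aurora A, read 10.58, 9.98 and 10.32 at 0 h, 10.41, 10.38 and 9.99 at 2 h, and 10.30 and 10.58 at 10 h. The lowest arrays were 0 h replicate 2 and 2 h replicate 3, both among the 3 arrays with the lowest medians. Its log2 fold change at 10 h against 0 h was 0.15 ± 0.22 on the brightest probe set.

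AURKB is the kinase of the chromosomal passenger complex, which corrects faulty attachments of chromosomes to the spindle. AURKB read 8.60, 8.23 and 8.56 at 0 h, 8.62, 8.55 and 8.67 at 2 h, and 8.35 and 8.74 at 10 h, and its 10 h arrays were as far apart as the untreated ones. INCENP and CDCA8, subunits of the same complex, had log2 fold changes at 10 h against 0 h of 0.03 (-0.54 to 0.60) and 0.15 (-0.30 to 0.59). TPX2, which activates Aurora A on spindle microtubules, read 10.22, 10.05 and 9.95 at 0 h, 10.14, 10.06 and 10.35 at 2 h, and 9.98 and 10.21 at 10 h. Its 10 h arrays lay within the range of the untreated arrays, with a log2 fold change of 0.02 ± 0.19. All 7 genes placed in this role group had a positive log2 fold change at 10 h against 0 h, between 0.02 (TPX2) and 0.24 (NEK2). None passed the test. The kinase genes CDK1, TTK and BUB1, placed in other role groups, had negative values in that comparison, at -0.15, -0.23 and -0.02. The positive sign of all 7 did not hold with 1 array fewer, since 4 were positive without 0 h replicate 2, 4 without 0 h replicate 3 and 3 without 10 h replicate 2.

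The spindle checkpoint delays anaphase until every kinetochore is attached. BUB1, a checkpoint kinase, read 9.41, 8.97 and 9.12 at 0 h, 9.24, 9.12 and 9.002 at 2 h, and 8.91 and 9.38 at 10 h. BUB1B, which encodes the APC/C inhibitor BubR1, read 10.33, 9.75 and 10.39 at 0 h, 10.20, 10.32 and 10.20 at 2 h, and 10.06 and 10.51 at 10 h. Both genes overlapped at all times, and the lowest BUB1B value was in 0 h replicate 2. MAD2L1, another inhibitor of the APC/C activator CDC20, read 10.10, 10.26 and 9.92 at 0 h, 10.16, 10.09 and 10.13 at 2 h, and 10.17 and 10.01 at 10 h. Its fold at 10 h against 0 h was 0.999, with a log2 interval of -0.40 to 0.40. TTK encodes the kinase MPS1, which starts checkpoint signalling. TTK read 10.65, 10.63 and 10.78 at 0 h, 10.47, 10.70 and 10.43 at 2 h, and 10.36 and 10.55 at 10 h. Both 10 h arrays lay below all 0 h arrays, but the log2 fold change of -0.23 ± 0.19 (-0.63 to 0.17) did not pass. BUB3, the remaining gene of this group, had -0.07 at 10 h against 0 h.

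Exit from mitosis needs CDC20 and UBE2C, the activator and the ubiquitin-conjugating enzyme of the APC/C, and ends the hold of securin (PTTG1) on separase. CDC20 read 9.76, 9.64 and 9.17 at 0 h, 9.73, 9.97 and 9.17 at 2 h, and 9.70 and 9.74 at 10 h. Replicate 3 was the lowest at both 0 h and 2 h, as for CCNB1, and the log2 fold change at 10 h against 0 h was 0.20 ± 0.24. UBE2C read 10.65, 10.35 and 10.30 at 0 h, 10.70, 10.67 and 10.41 at 2 h, and 10.52 and 10.72 at 10 h, a log2 fold change of 0.19 ± 0.20. PTTG1 read 11.10, 10.88 and 10.81 at 0 h, 11.20, 11.03 and 10.63 at 2 h, and 10.91 and 11.09 at 10 h. Its highest and lowest arrays were both 2 h arrays, and the log2 fold change at 10 h against 0 h was 0.07 ± 0.21.

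Kinetochore and centromere genes connect chromosomes to microtubules. NDC80, a microtubule-binding subunit of the outer kinetochore, read 9.71, 8.96 and 9.61 at 0 h, 9.44, 9.14 and 9.48 at 2 h, and 9.40 and 9.72 at 10 h. CENPA, the histone variant that marks centromeres, read 8.27, 8.01 and 8.10 at 0 h, 8.48, 8.24 and 7.93 at 2 h, and 8.03 and 8.60 at 10 h. In both genes the 10 h arrays overlapped with the 0 h arrays, with log2 fold changes of 0.13 ± 0.23 (NDC80) and 0.19 ± 0.22 (CENPA). CENPE, a kinetochore motor, read 7.82, 7.14 and 7.64 at 0 h, 7.58, 7.16 and 7.65 at 2 h, and 7.37 and 7.43 at 10 h. CENPF, a large kinetochore protein that accumulates in G2, read 8.75, 8.14 and 9.08 at 0 h, 8.67, 8.58 and 8.75 at 2 h, and 8.33 and 8.91 at 10 h. For both CENPE and CENPF the highest and the lowest array were untreated ones. NUF2 and SPC25, partners of NDC80 in its complex, had log2 fold changes of 0.25 (-0.18 to 0.67) and 0.13 (-0.43 to 0.68) at 10 h against 0 h.

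The mitotic kinesins move chromosomes and slide microtubules. KIF11 encodes Eg5, which pushes the spindle poles apart. KIF11 read 9.83, 9.78 and 9.82 at 0 h, 10.04, 9.84 and 10.32 at 2 h, and 10.12 and 10.04 at 10 h. Every treated array lay above every 0 h array, 2 h replicate 2 by the narrowest margin, and the untreated arrays were close together. The log2 fold changes were 0.25 ± 0.18 at 2 h (-0.12 to 0.62) and 0.27 ± 0.20 at 10 h against 0 h (-0.14 to 0.68), the highest of the members at 2 h, and neither passed.

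KIF20A, a kinesin of the central spindle, read 8.35, 8.04 and 8.22 at 0 h, 8.33, 8.27 and 8.33 at 2 h, and 8.36 and 8.44 at 10 h. The 10 h arrays lay above all others, by a narrow margin over 0 h replicate 1, and the log2 fold change at 10 h against 0 h was 0.19 ± 0.19. KIF2C, a microtubule depolymerase, had 0.22 (-0.22 to 0.65) in that comparison, and KIF4A and KIF14 had 0.07 (-0.41 to 0.54) and 0.02 (-0.52 to 0.55). KIF23, a component of the centralspindlin complex, had -0.10 (-0.54 to 0.34) at 10 h against 2 h and -0.003 at 10 h against 0 h.

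Genes of spindle assembly and of the midzone held the highest value of the list. DLGAP5 (HURP) bundles and stabilises spindle microtubules near chromosomes. DLGAP5 read 8.77, 8.85 and 8.22 at 0 h, 8.50, 8.53 and 8.75 at 2 h, and 9.64 and 8.78 at 10 h. The first 10 h array was the highest of all, while the second lay inside the range of the 0 h arrays. At each time the highest DLGAP5 value lay in the array that belonged to the 3 with the lowest medians. These 3 arrays averaged 9.08 against 8.56 in the other 5, a difference of 0.52, where the median difference over all genes was -0.21. Whether this pattern bears on the 10 h value was not tested. The log2 fold change at 10 h was 0.60 ± 0.25 against 0 h (0.06 to 1.13, unadjusted p = 0.0308, limma adjusted p = 1.00) and 0.62 ± 0.25 against 2 h. Without 10 h replicate 1 it was 0.17 (-0.44 to 0.77) against 0 h and 0.18 against 2 h, so 1 array decided the value, and without 10 h replicate 2 it was 1.03 and 1.05.

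CKAP2, a spindle-associated protein, read 9.03, 8.94 and 8.72 at 0 h, 8.46, 8.64 and 8.86 at 2 h, and 8.86 and 9.09 at 10 h. Its log2 fold change at 2 h against 0 h, -0.24 ± 0.18, was the lowest of the members at that time, and at 10 h against 2 h it was 0.32 ± 0.20. With the mean of its probe sets these values were -0.04 and -0.08. The other genes of the group had log2 fold changes at 10 h against 0 h of 0.13 (ASPM), 0.16 (NUSAP1), -0.04 (HMMR) and -0.01 (PRC1). ASPM and NUSAP1 organise spindle microtubules, HMMR is a spindle-pole protein and PRC1 bundles the midzone.

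Cytokinesis separates the daughter cells. ANLN, the scaffold of the contractile ring, read 8.42, 8.15 and 8.74 at 0 h, 8.18, 8.25 and 8.49 at 2 h, and 8.07 and 8.21 at 10 h. ECT2, which switches on RhoA at the division plane, read 9.17, 8.72 and 8.43 at 0 h, 9.03, 8.44 and 8.97 at 2 h, and 8.57 and 8.44 at 10 h. After CCNA2 these had the lowest log2 fold changes at 10 h against 0 h, -0.29 ± 0.21 (ANLN) and -0.27 ± 0.24 (ECT2), and both overlapped with the untreated arrays.

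RACGAP1, the partner of KIF23 in centralspindlin, read 8.48, 11.15 and 7.46 at 0 h, 8.68, 8.20 and 10.95 at 2 h, and 10.19 and 8.12 at 10 h. The 3 arrays with the lowest medians (0 h replicate 2, 2 h replicate 3 and 10 h replicate 1) held its 3 highest values. They averaged 10.8 against 8.19 in the other 5 arrays, a difference of 2.58, where the median difference over all genes was -0.21. Its spread within a time (SD 1.66) was the largest of the members, whose median SD was 0.22. The log2 fold change at 10 h against 0 h was 0.13 ± 0.84 (-1.65 to 1.90), and with these 3 arrays as a block it was -0.31 (-0.98 to 0.35). Without that block the interval held changes beyond 2-fold in both directions.

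Chromosome structure was represented by topoisomerase II, by condensin subunits and by Ki-67. TOP2A, the topoisomerase that untangles sister chromatids, read 11.17, 11.13 and 11.10 at 0 h, 11.22, 10.97 and 11.36 at 2 h, and 11.22 and 11.31 at 10 h. Both 10 h arrays lay just above the untreated ones, with a log2 fold change of 0.13 ± 0.19 (-0.27 to 0.54). MKI67, which coats mitotic chromosomes and is used as a proliferation marker, read 8.08, 7.65 and 8.56 at 0 h, 8.42, 7.96 and 8.60 at 2 h, and 7.71 and 8.36 at 10 h. Its log2 fold changes were 0.23 ± 0.24 at 2 h against 0 h, -0.07 ± 0.27 at 10 h against 0 h and -0.30 ± 0.27 at 10 h against 2 h, and its arrays overlapped at all times.

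SMC4, an ATPase subunit of both condensins, read 11.05, 10.77 and 10.84 at 0 h, 10.62, 10.64 and 10.91 at 2 h, and 11.20 and 11.40 at 10 h. Both 10 h arrays lay above all others. Its log2 fold change was 0.58 ± 0.20 at 10 h against 2 h (0.16 to 0.99, unadjusted p = 0.00903, limma adjusted p = 0.998), a fold of 1.49, and 0.41 ± 0.20 against 0 h. A second probe set of SMC4 gave 0.17 at 10 h against 2 h and 0.02 against 0 h, and the dimmest gave 0.20 and 0.52. The mean of its 3 probe sets gave 0.32 at 10 h against 2 h. NCAPG and NCAPH, subunits of condensin I, had -0.15 each at 10 h against 2 h, with intervals that reached -0.62 and -0.61. Against 0 h they had 0.22 and 0.09 at 2 h, and 0.07 and -0.06 at 10 h.

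FOXM1, the transcription factor that drives many of these genes in G2, read 9.63, 9.33 and 9.16 at 0 h, 9.41, 9.62 and 9.61 at 2 h, and 9.40 and 9.62 at 10 h. Its highest and lowest arrays were both untreated, and the log2 fold change was 0.17 ± 0.18 at 2 h and 0.13 ± 0.20 at 10 h against 0 h.

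**Figure D2:**
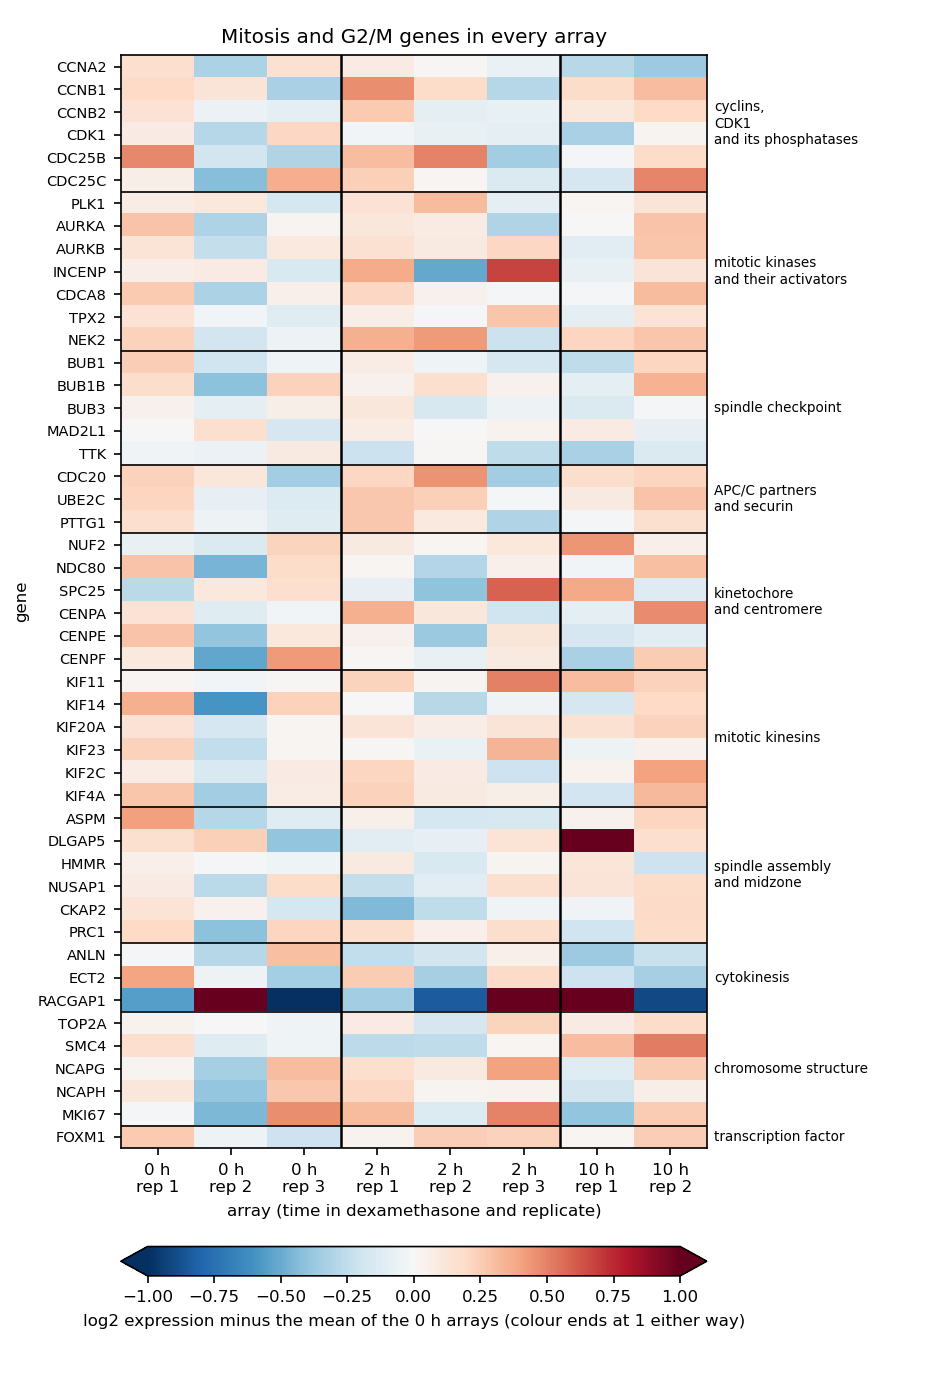
Deviation of each gene (rows, grouped by role) from its own mean over the 0 h arrays, in log2 units, as colour, in the 8 arrays (columns, by time and replicate). Columns differ within a time as well as between times. Counted against each gene's mean over all 8 arrays, which the colours do not show, 39 and 12 of 48 genes lie above in 0 h replicates 1 and 2. In 10 h replicates 1 and 2 the counts are 17 and 38.

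The common level of the members differed among arrays of the same time. The median deviation of the 48 genes from their own means over all 8 arrays was 0.10, -0.21 and -0.02 in the 0 h arrays. It was 0.08, -0.03 and 0.01 in the 2 h arrays, and -0.08 and 0.14 in the 10 h arrays. The same median over all genes was 0.06, -0.16 and 0.10 at 0 h, 0.08, 0.09 and -0.13 at 2 h, and -0.09 and 0.05 at 10 h. The lowest member median was thus in an untreated array that was also the lowest over all genes, and the highest was in a 10 h array. With each array centred on its median, or with the 3 arrays of lowest median as a block or left out, 0 of 48 genes passed in each comparison. Arrays that did not overlap were found for 1 member at 2 h against 0 h (higher, KIF11), where 2.94% of all genes were higher without overlap and 1.1% lower. At 10 h against 0 h there were 4 higher (KIF11, KIF20A, TOP2A, SMC4; 6.56% of all genes) and 1 lower (TTK; 6.51%). At 10 h against 2 h there were 3 higher (KIF20A, DLGAP5, SMC4; 5.43%) and 1 lower (CCNA2; 9.29%). As shares of the 48 members, the counts of higher genes were close to those of all genes and the counts of lower genes at 10 h were smaller. The counts of lower genes rest on 1 gene in each 10 h comparison, and the difference was not tested.

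The 48 genes had 94 probe sets with a single symbol, of which 83 had a mean above the controls. None of the 94 passed in a fit over all probe sets, where 0.251% of probe sets passed at 10 h against 0 h. Of 23 genes with more than 1 probe set above the controls, the probe sets of 19 had the same sign at 10 h against 0 h, of 10 at 2 h against 0 h and of 13 at 10 h against 2 h. CDK1 had -0.15, -0.32 and -0.28 in its 3 probe sets above the controls at 10 h against 0 h, and MKI67 had -0.07, -0.12, 0.10 and 0.30 in its 4.

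**Figure D3:**
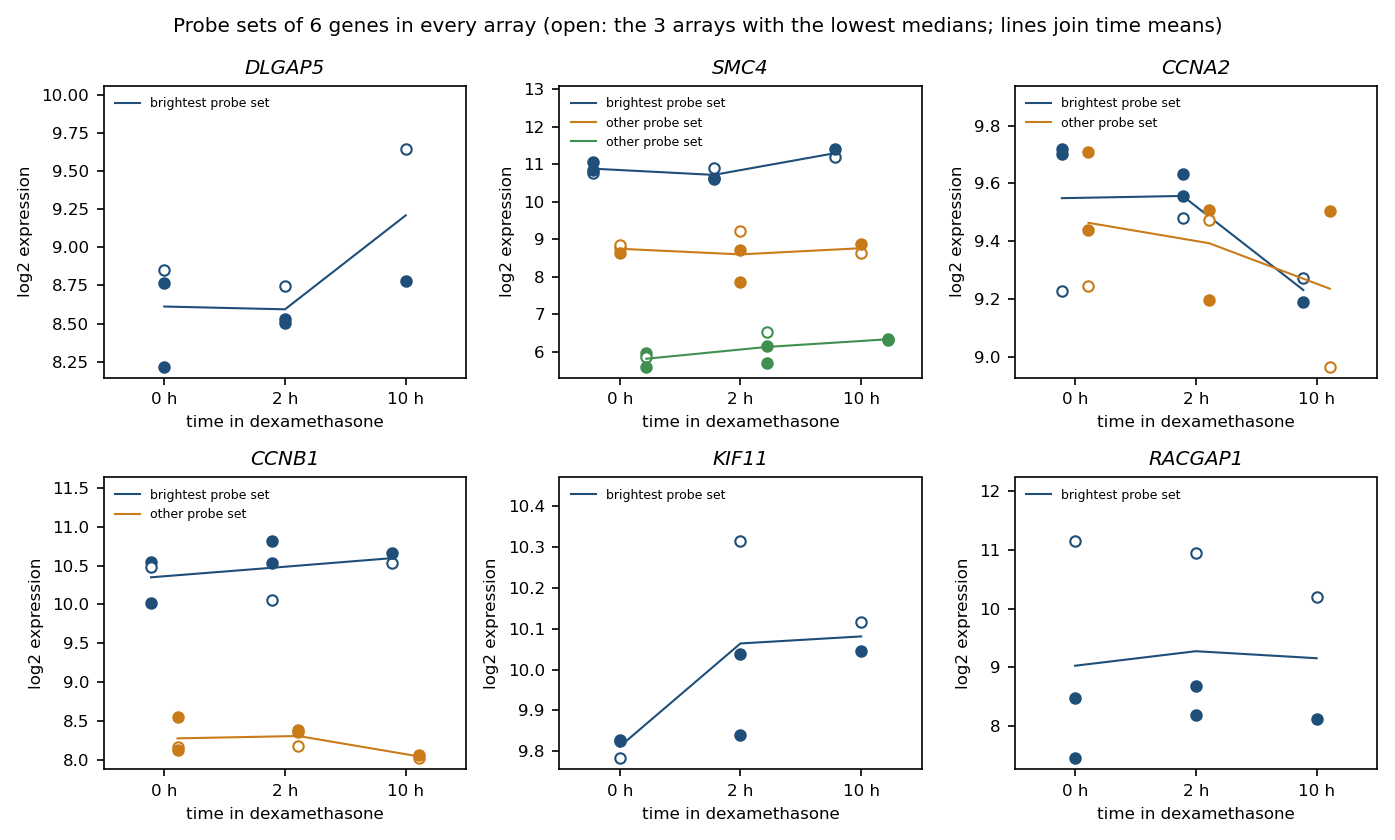
Log2 expression (y axis) of every probe set of 6 genes by time in dexamethasone (x axis), a point per array, with open points for the 3 arrays with the lowest medians and lines that join the means of the times. DLGAP5 is high in 1 of the 2 arrays at 10 h, an open point, and RACGAP1 is high in the 3 open points (mean 10.8). The second probe sets of SMC4 and CCNB1 do not follow the brightest ones.

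The members were also set apart by the CHR letters in their promoters. At 10 h against 0 h the 29 genes with TTTGAA or TTCGAA had a median log2 fold change of 0.07 (19 positive), and the 12 genes without either had 0.08 (9 positive).

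Other cell cycle genes were read from lists drawn up by function. Of 90 other mitotic genes 88 were measured, and 0 passed in any of the 3 comparisons. Their medians were 0.06 at 2 h against 0 h, 0.00 at 10 h against 0 h and -0.07 at 10 h against 2 h. The 10 h medians depended on which of the 10 h arrays was left out. Against 0 h and 2 h they were 0.11 and 0.07 without 10 h replicate 1, and -0.13 and -0.21 without 10 h replicate 2. TRIP13, which takes apart the checkpoint complex, read 9.05, 8.97 and 9.26 at 0 h, 9.05, 8.96 and 9.24 at 2 h, and 8.29 and 8.68 at 10 h. Both 10 h arrays lay below all others, but the log2 fold change at 10 h against 0 h, -0.61 ± 0.20, had a limma adjusted p of 0.695. CKS2, a CDK-binding subunit, had 0.51 ± 0.20 and also did not pass.

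Among 16 of 18 APC/C genes that were measured, 0 passed, with medians of 0.09, 0.06 and -0.06 in the same order of comparisons. The 10 h medians were 0.16 and 0.07 without 10 h replicate 1, and -0.05 and -0.10 without 10 h replicate 2. The subunits ANAPC16 and ANAPC2 had 0.36 each at 10 h against 0 h, FZR1, the activator that keeps the APC/C on in G1, had 0.31, and the inhibitor FBXO5 (EMI1) had -0.27. Of 24 DREAM, MuvB and E2F genes 0 passed, and the medians were 0.05, -0.08 and -0.16. The first was -0.08 without 0 h replicate 2, and those at 10 h were -0.01 and 0.01 without 10 h replicate 1 and -0.20 and -0.21 without 10 h replicate 2. LIN37, a MuvB subunit, had 0.44 ± 0.18 at 10 h against 0 h, RB1, the pocket protein that restrains E2F, had -0.47 ± 0.24, and E2F7, a repressor, had -0.34. E2F5, a repressive E2F, had 0.44 ± 0.22 at 2 h against 0 h, -0.43 ± 0.24 at 10 h against 0 h and -0.87 ± 0.24 at 10 h against 2 h (unadjusted p = 0.0022, limma adjusted p = 0.439). Its 10 h mean of 4.75 lay close to the highest control value.

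Of 24 genes that restrain the cell cycle or entry into mitosis 21 were measured. At 2 h and at 10 h against 0 h 1 passed, where 0.0202% and 0.354% of all genes passed. At 10 h against 2 h 0 passed (0.167% of all genes). BTG1, an antiproliferative gene, rose by 1.85 ± 0.21 at 2 h and by 2.31 ± 0.23 at 10 h against 0 h. The call held in 19 of 20 alternative fits and was lost where probe sets with no cross-hybridisation suffix were preferred, which gave 0.40 and 0.99. CDKN1B (p27), an inhibitor of cyclin-dependent kinases, had 0.27, and BTG3 had -0.52 ± 0.21, at 10 h against 0 h, and neither passed.

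Of 54 measured genes of G1/S and replication, which are needed before these genes act, 0 passed as well. Their medians were 0.06 at 2 h against 0 h, -0.13 at 10 h against 0 h and -0.20 at 10 h against 2 h. Without 10 h replicate 1 the 10 h medians were 0.02 and -0.06, with 25 and 36 of 54 genes negative in place of 42 and 53, and without 10 h replicate 2 they were -0.24 and -0.30. Without 0 h replicate 2 the median at 10 h against 0 h was -0.21. CDC25A, a phosphatase of S-phase entry, had -0.56 ± 0.24 at 10 h against 0 h. The difference between that list and the mitotic genes was not tested.

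**Figure D4:**
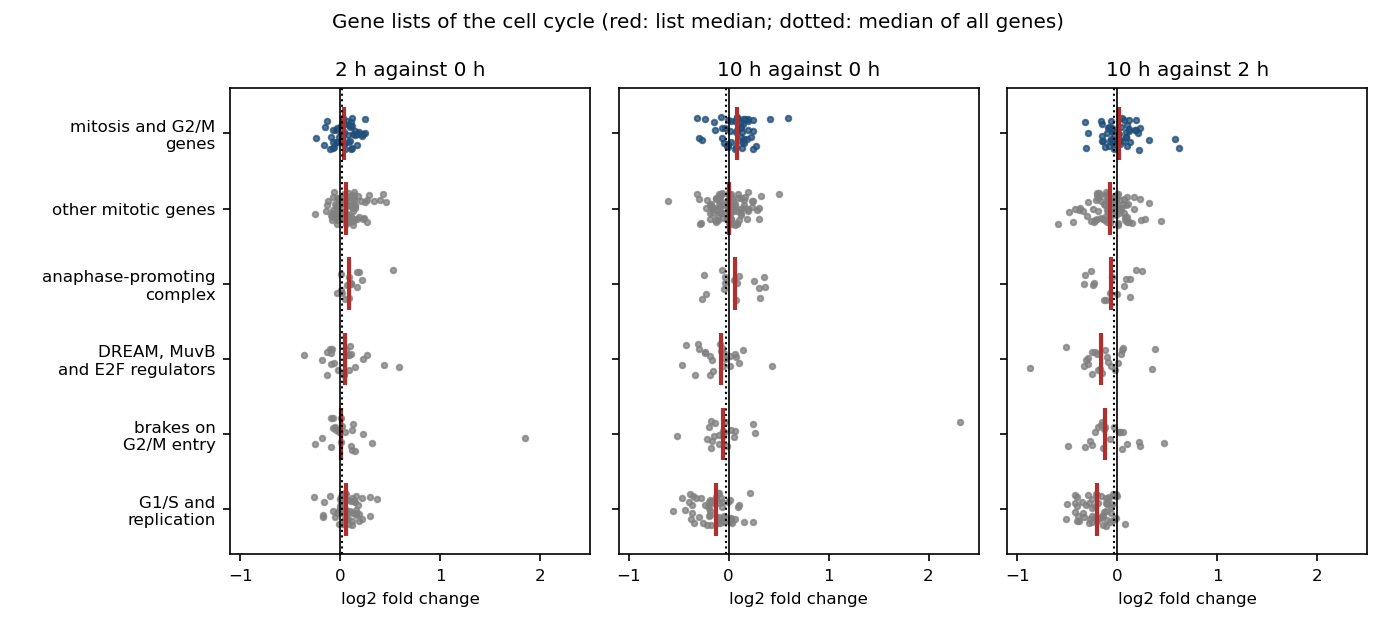
Log2 fold change (x axis) of every measured gene of the mitosis and G2/M list and of 5 other cell cycle lists (y axis, a point per gene), for the 3 comparisons; red marks are list medians and the dotted line is the median of all genes. The list medians lie between -0.20 and 0.09, and BTG1, at 1.85 and 2.31, is the point that stands far to the right.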

How the data were processed

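The authors deposited 1 table of log2 expression values for 54675 probe sets on 8 arrays, made with RMA per the submitters' processing notes. The RMA version, and whether all arrays were processed together, are not given in the sources used here. The deposited log2 values were used without further normalization. Probe sets with a single symbol in the platform annotation (41091 of 54675) were kept, 1801 named several genes, and the probe set with the highest mean over 8 arrays stood for each of 19775 genes. The fit was limma 3.58.1 in R 4.3.3 with a mean per time (3, 3 and 2 arrays), 5 residual degrees of freedom, moderated variances and Benjamini-Hochberg adjustment over all genes at 0.05. It was tested on simulated data. Groups came from the labelled times. The genes and lists were chosen with earlier results of these data known. Named by rule were a panel of 25 members with their values in every array, the 3 highest and 3 lowest members of each comparison, up to 4 genes of each other list (called ones, then the smallest unadjusted p at 10 h) and 4 hormone-response genes. Other members are given with their intervals, except that NEK2, BUB3, ASPM, NUSAP1, HMMR and PRC1 have the log2 fold change alone. For NCAPG and NCAPH only the lower end of the interval is given. The markers LCK, CD2, PAX5 and MS4A1 were named outside this rule. Of 94 member probe sets the chosen 1 carried a cross-hybridisation suffix in 20 genes, so related transcripts may contribute. Replicate numbers were checked for pairing: correlations of same-numbered deviations ran from -0.27 to 0.26, and 1 of 7 exceeded 0.1, so the numbers were not taken to pair samples. Alternatives changed the choice of probe set, the scaling, the variances, a filter on dim genes, blocks and the arrays used. Depth has no meaning for arrays, whose number limits the precision.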

Additional observations from a re-analysis of the deposited data

How the results depend on the processing

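The count of mitosis and G2/M genes that passed was 0 in each comparison under all 20 alternative fits with a test, while over all genes the count ran from 1 to 26 at 2 h against 0 h (4 as reported), 30 to 127 at 10 h against 0 h (70) and 12 to 62 at 10 h against 2 h (33). With the replicate number as a block it was again 0, and the medians of the 48 genes were 0.04, 0.09 and -0.03 in that order of comparisons. The same median moved beyond the spread between arrays in 1 case, to 0.25 at 2 h against 0 h within the 3 arrays with the lowest medians, where the median of all genes was 0.03 and each time had 1 array. The cause was not tested. With 1 array left out, the median ranged from -0.01 to 0.11 at 2 h against 0 h, from -0.03 to 0.20 at 10 h against 0 h and from -0.10 to 0.11 at 10 h against 2 h, so its sign is not settled. Over all alternatives with a test, 43 to 48 of the 48 intervals lay within 2-fold, a count chosen after seeing the data. The median interval at 10 h reached about 1.36-fold to either side of the estimate, without adjustment for the number of genes. Larger changes than that also failed the adjusted test. Examples are TRIP13 at -0.61 at 10 h against 0 h and E2F5 at -0.87 at 10 h against 2 h (limma adjusted p = 0.695 and 0.439).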

Other observations

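Among the B-cell markers, CD79A, a subunit of the B-cell receptor complex that some T-lineage leukaemias also express, averaged 9.19 at 10 h and 8.50 at 0 h, a log2 fold change of 0.69 ± 0.21 with a limma adjusted p of 0.518. Of the 7 measured B-cell markers 5 had a negative log2 fold change at 10 h against 0 h (median -0.04), among them CD79B, the partner of CD79A, at -0.28, and no marker passed the test. PAX5 and MS4A1 had log2 fold changes of 0.05 and -0.04 and 0 h means of 5.17 and 4.10, the second below the highest control value of 4.73.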
